A study of Mus musculus with 2 samples.

Results

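The distal end of mouse chromosome 11 is described here as a region of dense p53 peaks. Its members are all peaks on chromosome 11 of build mm9 whose midpoint lies at or beyond position 115000000, and there are 1252 of them, out of 7267 on the chromosome and 92924 in the whole peak list. The region was chosen by its peak counts in this same list, since several of the densest megabases of the genome lie in it. Its high density is therefore a description and no finding, and score, width and spacing come from the same ChIP-against-input contrast, so none of them was tested. All intervals below are exact 95% intervals that cover the counting error of peaks only, and neighbouring peaks are not independent of each other.

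The list comes from mouse embryonic stem cells of a C57BL/6X129Sv mix at fewer than 20 passages, grown with leukemia inhibitory factor and exposed to Nutlin for 8 hours. The dose of Nutlin is given as 20, once in µM and once in mM, so its unit is not settled. There was 1 library of chromatin pulled down with the p53 antibody M-19 and 1 library of input chromatin with no antibody, both from treated cells. Without an untreated library no value measures a response to Nutlin, and with no repeat library the spread between cultures is unknown. The read depth of both libraries is unknown.

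p53 is a transcription factor that binds a pair of short half-sites in DNA and switches on genes of growth arrest, apoptosis and its own control, among them Cdkn1a and Mdm2. The ubiquitin ligase Mdm2 keeps p53 scarce, and Nutlin blocks the contact between them so that p53 accumulates. A p53 peak below is a stretch where the authors' caller found more ChIP than input reads. Its score is −10 × log10 of the caller's p-value as this caller writes it, so it depends on read depth and not on enrichment alone, and how many peaks are p53 binding sites was not tested.

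The distal part of chromosome 11 is known as a gene-rich stretch, but the label could not be checked, because no mm9 annotation or sequence was used here. In the RefSeq table of GRCm38, another build, protein-coding genes toward the end of this chromosome come in this order among others: Grb2 (an adaptor of receptor tyrosine kinases), H3f3b (histone H3.3), Srsf2 (a splicing factor), Tk1 (thymidine kinase), Birc5 (survivin, of the chromosomal passenger complex) and Socs3 (a brake on LIF-STAT3 signalling). They are followed by Rptor (the mTORC1 subunit Raptor), Actg1 (cytoplasmic actin), Fasn (fatty acid synthase), Foxk2 (a forkhead factor) and Metrnl (a secreted protein). All 23 names looked up were found in that table, and Grb2 is entry 153 from the end of 1609 protein-coding entries on the chromosome. No peak was assigned to any of these genes, and which of them lie beyond the boundary in mm9 was not determined.

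Peaks in the distal end lay 3.42 times as densely as in the rest of chromosome 11 (3.21 to 3.63). The region runs for 6.82 Mb from the boundary to the last peak, which ends at 121818148. It held 184 peaks per Mb (174 to 194), or 1 peak in every 5.45 kb. The rest of the chromosome, 112 Mb from the first peak to the boundary, held 53.7 per Mb (52.4 to 55.1), or 1 in every 18.6 kb. The distal end thus made up 5.74% of this length and 17.2% of the peaks of the chromosome. Peaks covered 11.3% of its bases and 3.10% of the rest.

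**Figure D1:**
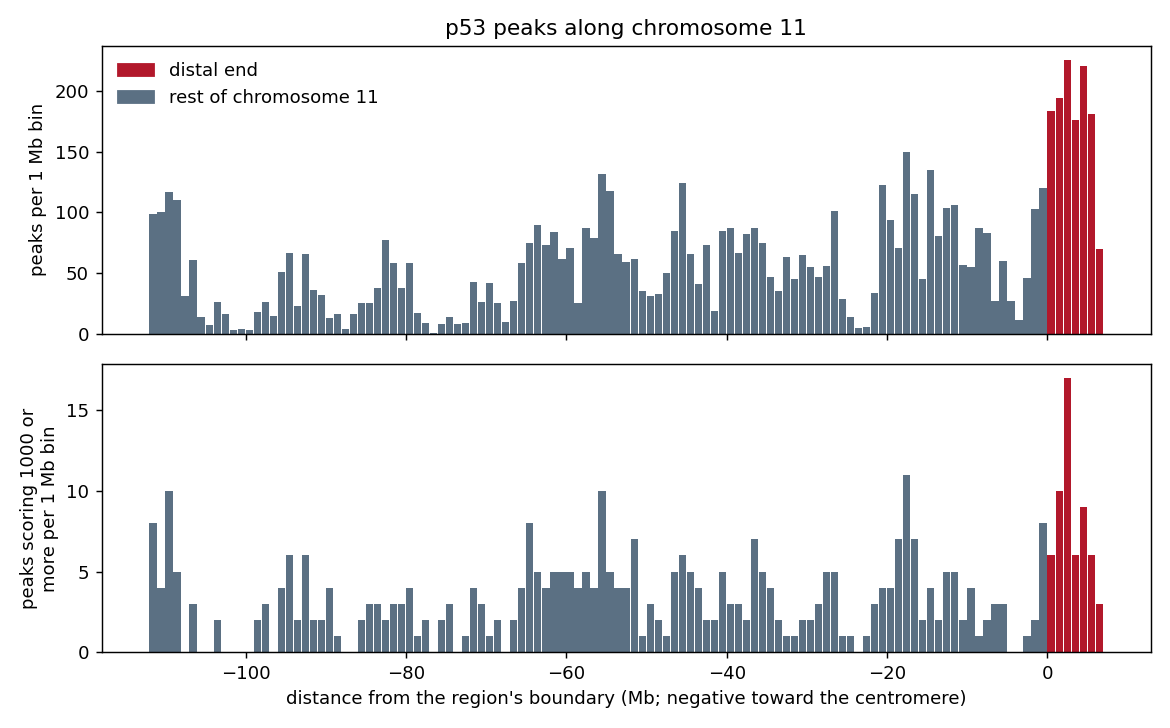
Peaks per 1 Mb bin (top) and peaks scoring 1000 or more per 1 Mb bin (bottom) along chromosome 11, by distance from the boundary in Mb, with the distal end in red and the rest in grey. The 6 whole bins of the distal end hold 176 to 226 peaks, all above the highest bin of the rest, which holds 150; the last bin ends at the last peak and is not a whole megabase.

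The rise began before the boundary, which is not a natural edge. The megabase bins approaching it held 11 peaks from 111000001, 46 from 112000001, 103 from 113000001 and 120 from 114000001, and the first bin inside held 184. Inside, the next bins held 194, 226, 176, 221 and 181 peaks, and the last, incomplete one held 70. The median megabase of the rest held 50.5 peaks over 112 bins. At the boundary itself, the last peaks outside were at chr11:114969280-114970223 (score 1064.9), chr11:114975521-114975905 (score 190) and chr11:114984270-114985168 (score 488). A gap of 21025 bases followed. The first peaks inside were at chr11:115006194-115006950 (score 141), chr11:115007310-115008000 (score 172) and chr11:115009250-115009566 (score 59.2).

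At finer scale peaks were found in all whole bins of the region. Of its 68 whole bins of 100 kb, none was empty, and the median bin held 19 peaks (quartiles 15 and 22). The rest of chromosome 11 had a median of 4 (quartiles 1 and 8) over 1119 such bins, of which 154 were empty (13.8%). Only 21 of those bins (1.88%) reached the 19 peaks of the median distal bin. In bins of 50 kb the distal median was 9 peaks (quartiles 7 and 12) with 0 of 136 bins empty. This count depends on where the edges fall, since the longest gaps between members, given further on, exceed 50 kb. In the rest it was 2 peaks, and 585 of 2239 bins were empty (26.1%). Bins of 10 peaks or more made up 47.1% of the distal 50 kb bins and 3.57% of those in the rest. High bin counts and a lack of empty bins largely follow from the choice of a dense region.

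The distal counts scattered less, relative to their mean, than those pooled over the rest, which joins dense and sparse parts of the chromosome. Over 100 kb bins the distal counts were 18.4 ± 6.02 (mean ± SD over bins) and those of the rest 5.37 ± 5.002. The variance divided by the mean, which is 1 for counts that scatter by counting error alone, was 1.97 in the distal end and 4.66 in the rest. Much of the distal excess lay in the last stretch. The first 6 Mb held 1182 peaks (197 per Mb) with bins from 11 to 34 and a variance over mean of 1.18. The remaining 0.818 Mb held 70 peaks (85.6 per Mb). A split at 6 Mb leaves the 5 lowest bins out of the first part, which lowers its variance over mean by construction.

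The highest 100 kb bin, chr11:117800001-117900000, held 34 peaks, against a highest bin of 27 in the rest of the chromosome. Its peaks covered 21.4% of its bases, and 4 of them scored 1000 or more. The next was chr11:119900001-120000000 with 30 peaks, of which 1 was that strong. It was followed by 27 peaks each in chr11:116400001-116500000 and chr11:117600001-117700000, and by 26 in chr11:117900001-118000000. A further bin with 26, from 119000001, comes after these only by position.

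In 50 kb bins the maxima became sharper and showed different make-ups. The highest bin, chr11:117850001-117900000, held 21 peaks, covered 28.0% of its bases and had 3 strong peaks. The second, chr11:117600001-117650000, held 20 peaks with 1 strong peak. The third, chr11:116200001-116250000, held 19 peaks and had no strong one: 14 of its peaks scored under 100, and its highest score was 381. The bin chr11:117150001-117200000 held 17 peaks, again with no strong one, yet a median score of 129. The bin chr11:119100001-119150000 held 16 peaks with 1 strong peak. It shares this count with the bins from 119950001 and from 120650001, which held no strong peak and come after it only by position. A bin of many peaks was not always a bin with a strong one, and only 4.55% of all members were strong. Whether these bins differ beyond counting error was not tested. The highest 50 kb bin in the rest of the chromosome held 16.

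**Figure D2:**
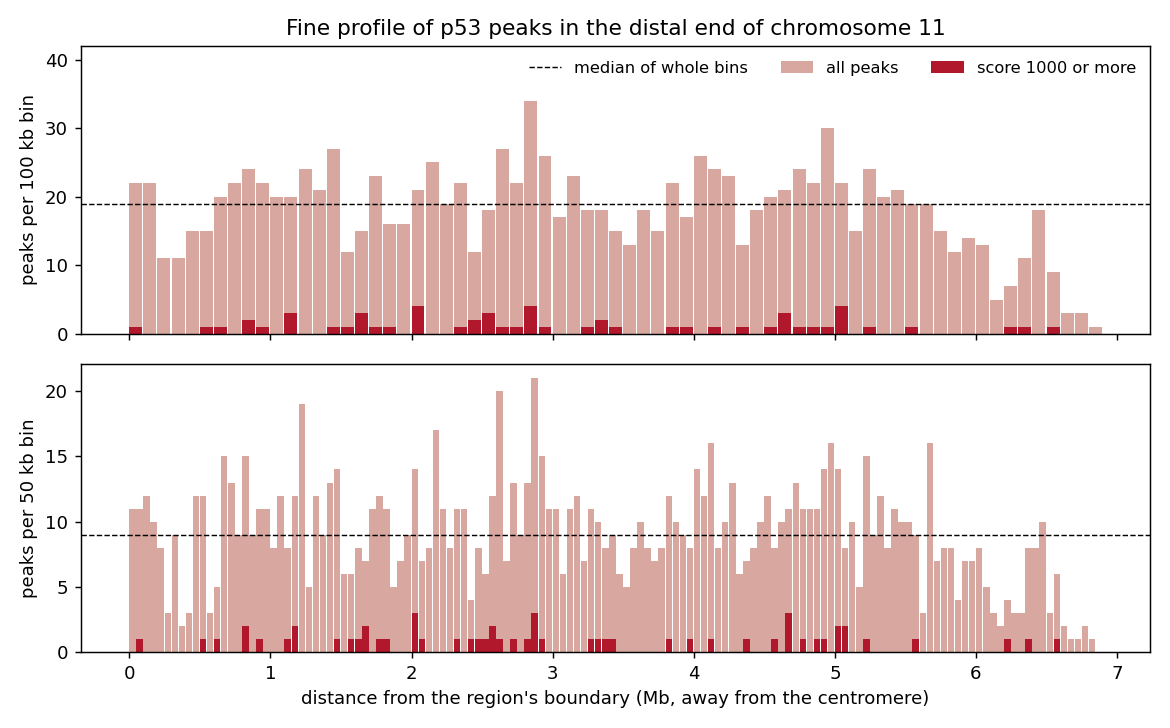
Peaks per 100 kb bin (top) and per 50 kb bin (bottom) in the distal end, by distance from the boundary in Mb; light bars are all peaks, dark bars those scoring 1000 or more, and dashed lines the medians of whole bins (19 and 9). Counts stay near the median for about 6 Mb, reach 34 and 21 at the highest bins and fall toward the end, where 5 bins of 100 kb hold 10 peaks or fewer.

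Toward the end of the chromosome the peaks thinned out. The 5 lowest whole bins of 100 kb all lay beyond 121100000: they held 5 peaks from 121100001, 7 from 121200001, 9 from 121500001, and 3 each from 121600001 and 121700001. Blocks of 0.5 Mb showed the same fall, from 204 per Mb (166 to 248) in the block from 120000001, through 158 (125 to 197) and 108 (81.1 to 141), to 50.3 (28.7 to 81.7) in the last, incomplete block. This last density was about that of the rest of the chromosome. The earlier blocks of the region ran from 162 per Mb in the first to 254 (212 to 302) in the block from 117500001, the densest. The median score in the last whole block, from 121000001, was 67.5 (62.2 to 80.3), the lowest of the 14 blocks, and its median width was 494.5 bases (433 to 558), also the lowest.

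Long gaps were few. The longest stretch without a peak inside the region was chr11:115362702-115439003, of 76.3 kb, in the thin part of the first block. The second, chr11:121709712-121785777, was of 76.1 kb and lay close to the end. The others among the longest were chr11:115555821-115614167 (58.3 kb), chr11:116522810-116572732 (49.9 kb) and chr11:121662646-121709075 (46.4 kb). In the rest of the chromosome the longest gap was 905703 bases.

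The typical gap from a member to the next peak was 2714 bases (median, 2510 to 3013), against 7481 bases (7070 to 7758) in the rest. Gaps of up to 1 kb followed 24.7% of members (22.3% to 27.2%) and 14.2% of other chromosome 11 peaks (13.3% to 15.1%). Gaps of up to 10 kb followed 87.5% of members (85.5% to 89.2%) and 58.4% of the others (57.1% to 59.6%). Such shares rise with density by construction. Relative to the mean gap, the median gap was 0.562 in the distal end and 0.415 in the rest, and the SD of gaps was 1.37 and 2.21 times their mean. The rest pools parts of uneven density, and single windows as long as the distal end reached like values of the first measure. It was 0.577 and 0.538 in windows of chromosome 11 from 80909261 and from 101363705, and 0.598 at the end of chromosome 4.

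**Figure D3:**
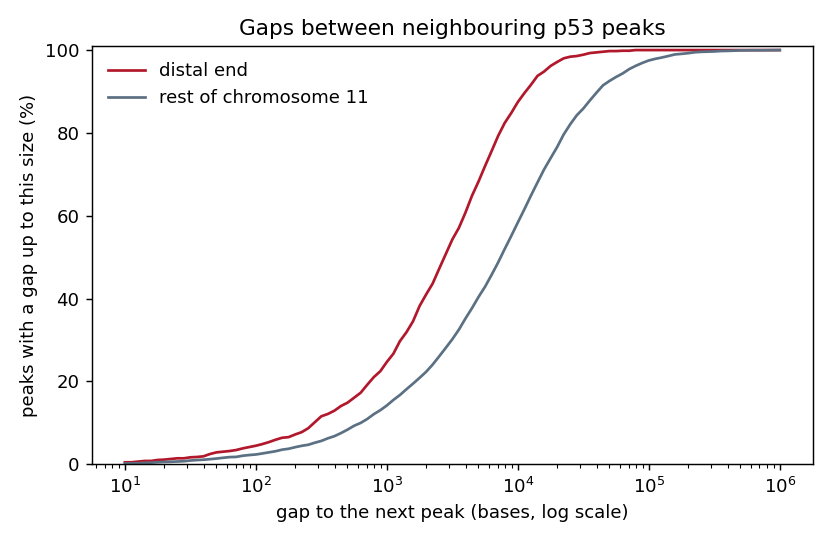
Share of peaks (%) whose gap to the next peak is at most the size on the x axis (bases, log scale), for the distal end (red) and the rest of chromosome 11 (grey). The distal curve lies to the left, with medians of 2714 and 7481 bases.

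Some members stood in tight chains. When peaks up to 1 kb apart were joined, the 1252 members formed 943 groups, of which 714 were single peaks, 178 were pairs and 51 had 3 peaks or more. These 51 held 182 members (14.5%), against 6.97% of the peaks in the rest of the chromosome. This share too rises with density by construction. The longest chains were named after their values were seen. The longest had 7 peaks, at chr11:116203468-116210458, with a top score of 116. Chains of 6 peaks lay at chr11:117867580-117874090, with a top score of 1320, and at chr11:120225865-120232948, with a top score of 3100. The chain of 7 falls in the third-highest 50 kb bin, and the first chain of 6 in the highest.

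Most members were weak, as elsewhere in the list. The median score was 84.2 (80.4 to 87.9) in the distal end, 86.6 (85.1 to 88.7) in the rest of chromosome 11 and 87.5 in the whole list. Scores of 100 or more were held by 495 of 1252 members (39.5%, 36.8% to 42.3%), against 41.8% in the rest and 43.0% in the list. Scores of 1000 or more, called strong here, were held by 57 members (4.55%, 3.47% to 5.86%), against 5.79% in the rest and 5.77% in the list. The strong share of the rest lies just inside the interval of the distal share, which rests on 57 peaks. These shares were not tested against each other. At scores of 500 or more the distal share was 7.35% (5.96% to 8.94%) and that of the rest 10.2% (9.45% to 11%). The share of the list was 10.3%. The distal and rest intervals do not overlap at 500, the only such case among the cutoffs compared. These cutoffs are nested, and the share at 500 was not compared with that of other dense windows. At 200 or more the shares were 17.7% (15.65% to 19.96%) in the distal end and 19.8% (18.83% to 20.86%) in the rest. At 3100 or more they were 1.28% (0.73% to 2.07%) and 1.70% (1.38% to 2.05%). Both pairs of intervals overlap.

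Peaks of all 5 score classes were denser in the distal end than in the rest, by ratios above 3 at scores under 500 and below 3 from there on. The density ratio to the rest was 3.55 (3.28 to 3.84) at scores of 50 to under 100, 3.40 (2.97 to 3.88) at 100 to under 200 and 3.69 (3.02 to 4.47) at 200 to under 500. It was 2.16 (1.47 to 3.08) at 500 to under 1000, where the distal end held 35 peaks, and 2.69 (2.00 to 3.57) at 1000 or more. The interval at 500 to under 1000 lies below that of the weakest class and overlaps slightly with those of the next 2, whereas the interval at 1000 or more overlaps with those of all weaker classes. In strong peaks per Mb, the distal end had 8.36 (6.33 to 10.8) and the rest 3.11 (2.79 to 3.45).

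Members were wider than other peaks of the chromosome, most clearly at scores of 100 to under 500. The median width was 550.5 bases (535 to 561) in the distal end and 518 (513 to 524) in the rest. At scores of 100 to under 200 it was 674 bases (656 to 692) against 603 (591 to 614), and at 200 to under 500 it was 802 (760 to 855) against 693 (671 to 707). The difference was small at 50 to under 100, with 473 (462 to 483) against 457 (452 to 462). At 500 to under 1000 the medians were 781 (689 to 889) and 749.5 (720 to 777), and at 1000 or more 989 (858 to 1184) and 856.5 (828 to 903), with overlapping intervals in both classes. Widths of 1000 bases or more were found in 7.59% of members (6.18% to 9.20%) and in 5.24% of the others (4.69% to 5.83%). Peak width and score are both set by the caller, and whether closer spacing of peaks has a part in the width was not tested.

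**Figure D4:**
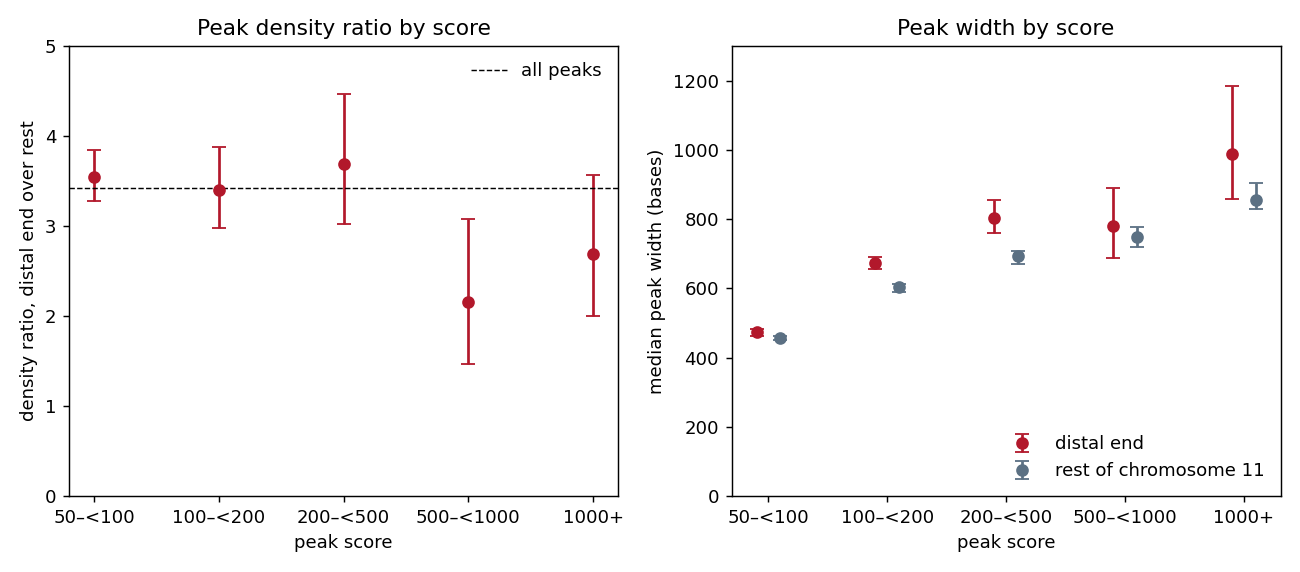
Left, ratio of peak density in the distal end to that in the rest of chromosome 11 for 5 classes of peak score, with the ratio for all peaks (3.42) dashed; right, median peak width in bases in both parts for the same classes. Bars are exact 95% intervals; the ratio is lower in the 2 highest classes, and distal peaks are wider by 71 and 109 bases at scores of 100 to under 200 and 200 to under 500.

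The strongest members were spread through the region. Its highest score was 3205.24, at chr11:117006066-117007086, and 15 more members had a score of exactly 3100, a value shared by 1390 peaks of the list that may not mark an order among them. The first of these by position were at chr11:115831237-115833387, chr11:115917292-115918913 and chr11:116824343-116825761, with widths of 2151, 1622 and 1419 bases. Next came chr11:117020890-117021822 (933 bases), chr11:117052152-117053229 (1078 bases) and chr11:117593215-117594072 (858 bases). The peaks at chr11:118264892-118266312 (1421 bases), chr11:118422197-118422908 (712 bases) and chr11:118813410-118815278 (1869 bases) close the group of 10, which the rule for ties fills by position. The other 6 members at 3100 start at 119557315, 119797809, 119866747, 120040765, 120230269 and 121380527, so the 16 members at or above this value reach from the first megabase of the region to the last. The top peak and those starting at 117020890 and 117052152, 3 of these 16, lay in a single 100 kb bin, from 117000001, which also held a strong peak with a score of 1336.12. Its median score of 191 was the highest of all whole 100 kb bins in the region.

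Width singled out partly different members. The widest peak spanned 2480 bases at chr11:119797809-119800288, with a score of 3100. It was followed by 2392 bases at chr11:117935316-117937707 (score 2239.8) and by the peak of 2151 bases named above. The peak at chr11:120400243-120402377 spanned 2135 bases with a score of only 540, and that at chr11:117717066-117719180 spanned 2115 bases with a score of 1468.59. All members were narrower than 4 kb.

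Strong members were few in most bins. Of the 68 whole 100 kb bins, 31 held no strong peak and 27 held 1. A further 3 bins held 2, 4 bins held 3, and 3 bins held 4, the most in any bin. Across these bins the counts of peaks under 100 and of strong peaks had a Spearman rho of 0.073 and a Pearson r of 0.118, given as a description of bins that share 1 library and lie side by side. Counts in adjoining bins were related over the whole region (rho 0.428 over 67 pairs) and less so in its first 6 Mb (0.249 over 59 pairs). The median gap between neighbouring strong members was 69.5 kb, against 147 kb in the rest. The longest stretch without a strong peak, chr11:120588933-121237902, was of 649 kb and held 83 weaker peaks. By megabase, the strong share was highest from 117000001 to 118000000, with 17 of 226 peaks (7.52%, 4.44% to 11.8%), and lay between 3.26% and 5.15% in the other 6 blocks, whose intervals all overlap with it.

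Strong members, like weaker ones, were rarely alone. Another peak lay within 5 kb of 94.7% of them (85.4% to 98.9%), of 88.8% of members under 100 (86.3% to 90.9%) and of 89.0% of those between (85.7% to 91.8%). The nearest neighbour was 0.772 kb away at the median for strong members and 1.43 kb for those under 100. The order was the same in the rest of the chromosome, with 2.256 kb and 3.485 kb. In the rest of the chromosome the shares were 66.7% (61.4% to 71.6%) for strong peaks and 60.6% (59.0% to 62.3%) for weak ones. Within each part the intervals of strong and weak peaks overlap, in the rest only narrowly. The shares of strong and weak peaks were not tested against each other.

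Among 342 autosomal windows of the same length, counted back from the last peak of each chromosome, the distal end of chromosome 11 had the most peaks, as its choice implies. The windows had a median of 212 peaks, and the next were the end of chromosome 4 with 1007 and a window of chromosome 5 with 962. In strong peaks it was second, with 57, to the end of chromosome 4, with 63. Its share of strong peaks was 272nd of 342 from the top, although over the 10 windows next in number of peaks this share ran from 2.78% to 6.26%, so that 4.55% lay inside their range. Its median gap of 2714 bases was the second shortest, after 2607 bases in a window of chromosome 10.

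Over all scores the median width of the distal members, 550.5 bases, was 6th of 342 windows. It lay inside the range of the 10 windows next in peak number, 523 to 555 bases. At scores of 100 to under 500 the median width of the distal members was 704 bases over 403 peaks, first of 342 windows. The second by this width was also on chromosome 11, from 67272965, with 694 bases over 131 peaks, and the 10 windows next in peak number ran from 641 to 689 bases. This order of medians carries no interval. Across the 275 windows with at least 100 peaks, this width rose with the number of peaks (Spearman rho 0.76), and the strong share fell (rho −0.32). These are descriptions over windows of 1 library, which share depth and caller.

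**Figure D5:**
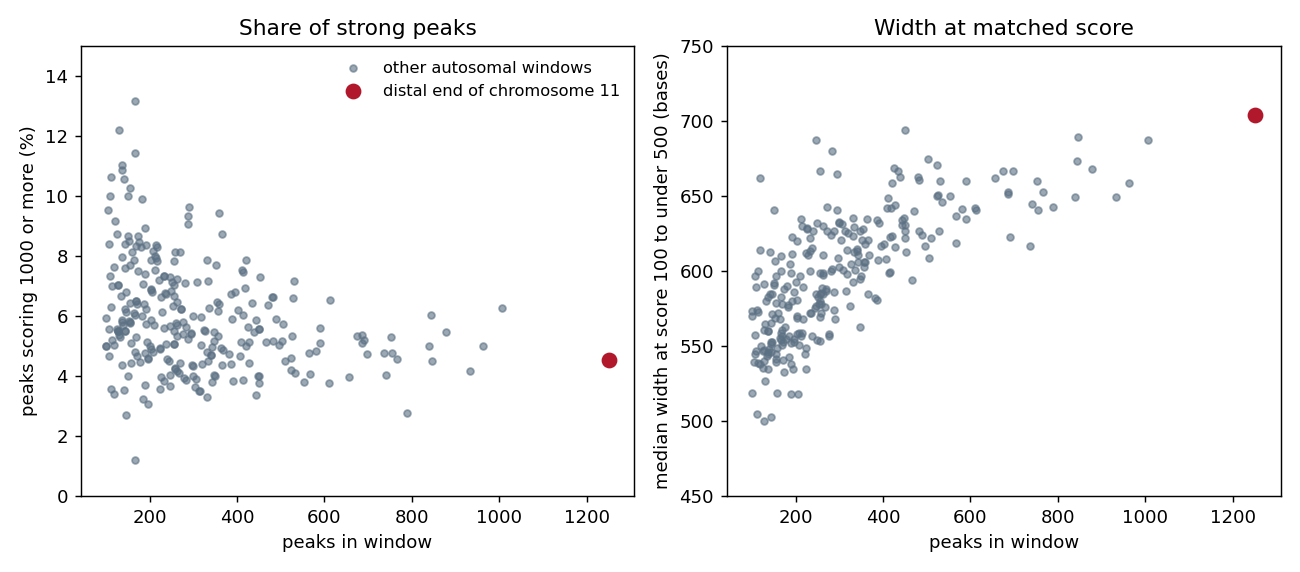
Autosomal windows of 6.82 Mb with at least 100 peaks, plotted by number of peaks against the share scoring 1000 or more (left, %) and the median width at scores of 100 to under 500 (right, bases, axis not from 0). Red marks the distal end of chromosome 11, with 1252 peaks, 4.55% and 704 bases; grey marks the other windows.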

How the data were processed

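The authors deposited 1 list of peaks without a header, with chromosome, start, end, name and a score from the authors' caller for each peak. CASAVA 1.8.2, MACS 1.4.1 and the build mm9 are listed in the submitters' processing notes. The aligner, read totals, handling of duplicates and caller settings were not given in the sources used here. Samples were grouped by title. The region, lists and measures were chosen with earlier results of these data known.

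Starts, counted from 0 in the file, are printed counted from 1. Peaks were placed by midpoint in bins of 50 and 100 kb from the boundary. Densities use the length from the first to the last peak. Shares have Clopper-Pearson intervals, densities Poisson intervals, ratios exact conditional intervals and medians order-statistic intervals. Named items were the 10 highest scores, the 5 widest, the 5 longest gaps, the 5 highest and lowest 100 kb bins, the 5 highest 50 kb bins and 3 peaks on each side of the boundary. Functions were tested on simulated data. Python 3.11.15, NumPy 2.4.6, pandas 2.3.3, SciPy 1.17.1 and Matplotlib 3.10.9 were used. The RefSeq gene table (GRCm38.p6) served for names and order only. No sequence is printed.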

Additional observations from a re-analysis of the deposited data

How the results depend on the processing

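Of 31 alternatives, 18 left the value inside the interval of the reported one and 13 moved it, and all re-use the same peaks. Part of the 13 follows from the settings themselves, so this tally does not measure robustness. Distances of 5 and 50 kb ask for other shares than 10 kb. Merging keeps the highest score and the whole span of the joined peaks. A score minimum takes peaks away, which lowers bin counts. The density ratio of 3.42 was 2.69 at scores of 1000 or more and 3.001 with peaks up to 1 kb apart merged. It stayed above 1 in all 6 of its alternatives, which the choice of the region by its peak counts implies. Merging also gave the distal end a strong share of 5.94%, a median score of 92.1, a median width of 610 bases and 83.3% of gaps within 10 kb. No merged values of the rest are given for these measures, so they cannot be set against its unmerged values above. After merging, the highest distal bins held 22 (100 kb) and, from 21, 13 (50 kb). The 13 lay only just inside the counting interval of the 21 (12.9993 to 32.1) and so counts among the 18. That interval does not cover the picking of a highest bin. With a score minimum of 100 the median width was 727 bases, the share of gaps within 10 kb 56.3%, and the highest bins held 16 (100 kb) and 10 (50 kb). Gaps within 5 kb and 50 kb were 68.2% and 99.8%. Moving the boundary by 1 Mb either way moved no value beyond its interval. Leaving out peaks wider than 4 kb removed no member. The strong share, median score and median width of members could therefore not move, though they count among the 18. The density ratio, which also uses the other peaks, was 3.42 with this setting. The 1 library per group and its unknown depth limit every value. No replicate could be left out.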
